A study of Mus musculus with 4 samples.

Results

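The PIM kinases are encoded in the mouse by Pim1, Pim2 and Pim3, and all 3 genes carried binding peaks of XBP1s, the spliced and active form of the transcription factor XBP1. The genes were taken by name: every peak that the authors' annotation gives to one of them was used, which is 5 of the 4890 peaks in the list. Pim1 had 3 peaks, Pim2 had 1 and Pim3 had 1. The binding was profiled by ChIP-seq, in which DNA pulled down with an antibody is sequenced, in natural killer (NK) cells from mouse spleen that had been given IL-15 at 50 ng/ml for 1 h. The design text names the mice Il15TgXbp1f/f, that is, carrying an Il15 transgene and floxed Xbp1 alleles, and the sample labels give the strain C57BL/6. No Cre is named there, and the sources used here do not give the promoter of the transgene. The 2 XBP1s immunoprecipitations and the 2 inputs share this genotype and treatment, so no sample without IL-15 or without XBP1 was analysed here.

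PIM kinases are serine and threonine kinases that are active as soon as they are made, so their amount is set largely by transcription, translation and protein turnover. Cytokines that signal through JAK kinases and STAT factors, IL-15 among them, induce Pim transcription. The kinases phosphorylate proteins of apoptosis, the cell cycle and translation, and the family was found through retroviral insertions in mouse lymphomas. XBP1s is best known as a factor of the unfolded protein response that binds sequences with an ACGT core. The title of the series names a positive feedback loop of XBP1s and PIM-2, the product of Pim2, in IL-15-dependent survival of NK cells.

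The authors deposited 1 combined peak list with no value for any single library. Replicate error and sequencing depth are therefore unknown for every value below, and IP and input libraries could not be compared. The deposited score is 0 for all 4890 peaks. The values per peak are its width, its place and its annotation, and width is not a measure of binding strength. The list had a median width of 373 bp with an interquartile range of 258 to 578 bp. All positions are 1-based on mm10.

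The sequences before the start sites are shown first because the peaks sit at different places around them. Each is 280 bases of the forward strand from the RefSeq promoter table (GRCm38.p6), from 250 bases before a start site to 30 after it. All 3 genes lie on the forward strand and had an entry in that table, and Pim1 had 2. Capitals mark matches of 4 motifs on either strand: the ACGT core, the CCACG motif, the palindrome CACGTG known as the E-box, and the CCAAT box. On the printed strand, a reverse match of CCACG reads CGTGG, and a reverse CCAAT box reads ATTGG.
Pim1 first start site, chr17:29490535-29490814: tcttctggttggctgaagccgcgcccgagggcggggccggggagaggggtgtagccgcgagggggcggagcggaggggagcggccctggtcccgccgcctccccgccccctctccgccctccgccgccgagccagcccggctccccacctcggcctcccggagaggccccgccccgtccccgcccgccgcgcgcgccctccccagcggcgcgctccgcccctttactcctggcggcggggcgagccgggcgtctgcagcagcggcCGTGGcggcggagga
Pim1 internal start site, chr17:29492835-29493114: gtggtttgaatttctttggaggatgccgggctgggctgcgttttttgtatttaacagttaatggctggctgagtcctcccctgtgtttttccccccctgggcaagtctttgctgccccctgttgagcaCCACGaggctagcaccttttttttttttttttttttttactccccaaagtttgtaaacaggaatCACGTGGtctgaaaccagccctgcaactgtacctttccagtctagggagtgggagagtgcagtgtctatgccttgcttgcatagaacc
Pim2, chrX:7878056-7878335: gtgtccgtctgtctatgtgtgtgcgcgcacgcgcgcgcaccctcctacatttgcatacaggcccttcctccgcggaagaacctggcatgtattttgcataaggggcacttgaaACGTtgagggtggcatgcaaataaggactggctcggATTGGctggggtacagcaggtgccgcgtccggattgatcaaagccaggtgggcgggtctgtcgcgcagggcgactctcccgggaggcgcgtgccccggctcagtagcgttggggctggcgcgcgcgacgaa
Pim3, chr15:88861944-88862223: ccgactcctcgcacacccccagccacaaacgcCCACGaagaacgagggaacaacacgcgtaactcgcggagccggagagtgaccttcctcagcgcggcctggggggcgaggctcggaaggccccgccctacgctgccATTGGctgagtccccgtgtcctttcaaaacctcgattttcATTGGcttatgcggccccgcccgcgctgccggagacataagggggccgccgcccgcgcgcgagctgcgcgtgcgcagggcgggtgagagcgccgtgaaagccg

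Pim3 had the widest peak of the family, and it lay over the start of the gene. The peak was 1082 bp wide (chr15:88861652-88862733). Its centre was 2 bp upstream of the transcription start site (TSS), and HOMER, the authors' annotation tool, placed it in the promoter. Of all peaks, 94.7% were narrower and 259 were wider. Among the promoter peaks alone, 94.0% were narrower. The peak was 2.9 times the median width of the list, and it reached 542 bp before the start site and 539 bp beyond it. The sequence printed above for Pim3 therefore lies wholly inside the peak, as did the window of 250 bp before to 50 bp after the start site in 4.78% of all 21263 such windows and in 31.5% of those that a peak touched. The RefSeq table also places an end of a protein-coding gene model, Gm33049, in this region. That gene overlaps Pim3 by 313 bp and had no peak of its own, so the list cannot tell a peak of Pim3 from a peak of Gm33049.

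Pim1, the founding member of the family, had 3 peaks of similar width that were spread over and beyond the gene. The first was 423 bp wide (chr17:29490335-29490757), annotated as promoter, with its centre 239 bp upstream of the first start site. It ended 28 bp before that site. The second was 454 bp wide (chr17:29494138-29494591) and lay in intron 2 of 2 of the transcript NM_001364913. Its centre was 1279 bp downstream of the internal start site of that transcript and 3579 bp downstream of the first one. The third was 434 bp wide (chr17:29500834-29501267), annotated as intergenic, and began 4723 bp past the end of the gene. HOMER gave its centre as 7965 bp downstream of the internal start site. The 3 widths differed by at most 31 bp, and each was slightly above the median of the list, with 58.3%, 62.3% and 59.9% of all peaks narrower than the first, the second and the third.

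A run of 3 peaks was uncommon. Of all protein-coding genes 17.8% had an assigned peak at any distance and 0.466% had 3 or more. Among the 3890 genes with a peak, 102 (2.62%) had 3 or more and 3397 had 1. From the first to the last, the Pim1 peaks spanned 10933 bp. The median span of the 102 genes was 18858.5 bp, and 33 of them had a shorter span than Pim1. The gaps between the Pim1 peaks were 3380 and 6242 bp. Summed over its peaks, Pim1 had 1311 bp, Pim3 had 1082 bp and Pim2 had 231 bp, against a median of 428 bp over those 3890 genes. A long noncoding gene of the RefSeq table, Gm26885, extends over the first peak and overlaps Pim1 by 760 bp, and no peak was assigned to it.

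Pim2, the gene in the title of the series, had the narrowest of the 5 peaks. It was 231 bp wide (chrX:7878322-7878552) and lay in exon 1 of 6, with its centre 131 bp downstream of the start site. Of all peaks 18.7% were narrower, and of the 255 peaks annotated to exons 18.0% were narrower. The Pim3 peak was 4.68 times as wide and the 3 Pim1 peaks were 1.83, 1.97 and 1.88 times as wide. The Pim2 peak began 16 bp after the start site, so that only 34 bp of the 300 bp from 250 before to 50 after that site were covered. Among the promoter windows that a peak touched, 5.22% were covered by fewer bases, and the median was 223 bp. Pim2 is also the only member on chromosome X, where peaks were sparse: 54 of 966 protein-coding genes there (5.59%) had one centred up to 5000 bp from the TSS, compared with 16.4% of those on the other chromosomes. The 72 peaks on chromosome X had a median width of 341 bp, and 20 of them were narrower than that of Pim2.

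**Figure D1:**
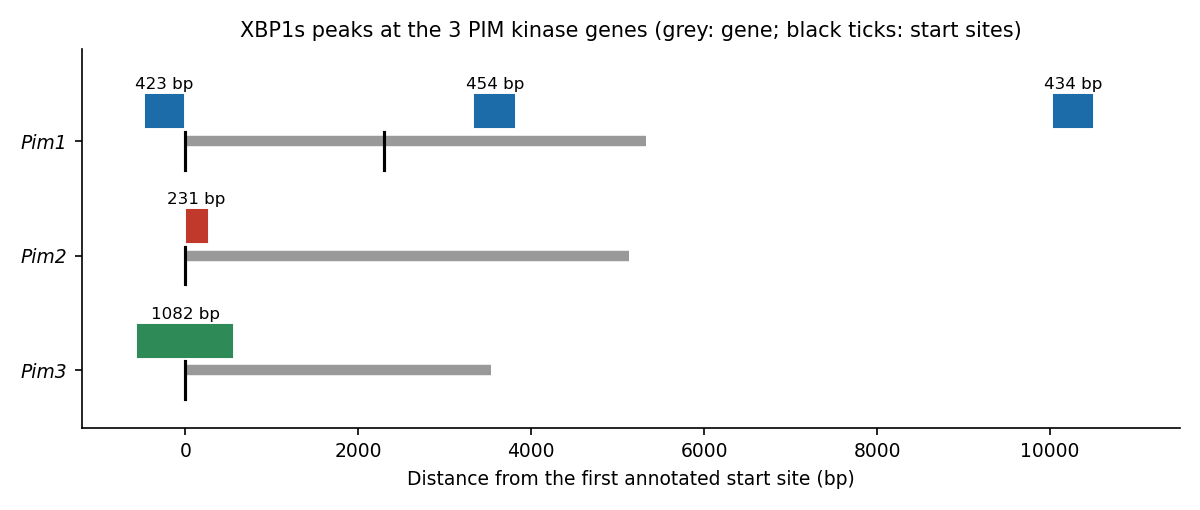
XBP1s peaks at Pim1, Pim2 and Pim3, drawn to scale against the distance in bp from the first annotated start site of each gene. Coloured boxes are peaks with their widths, grey bars are the genes and black ticks are RefSeq start sites; no Pim1 peak covers either of its start sites, the Pim2 peak begins 16 bp inside the gene and the Pim3 peak lies over the start.

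**Figure D2:**
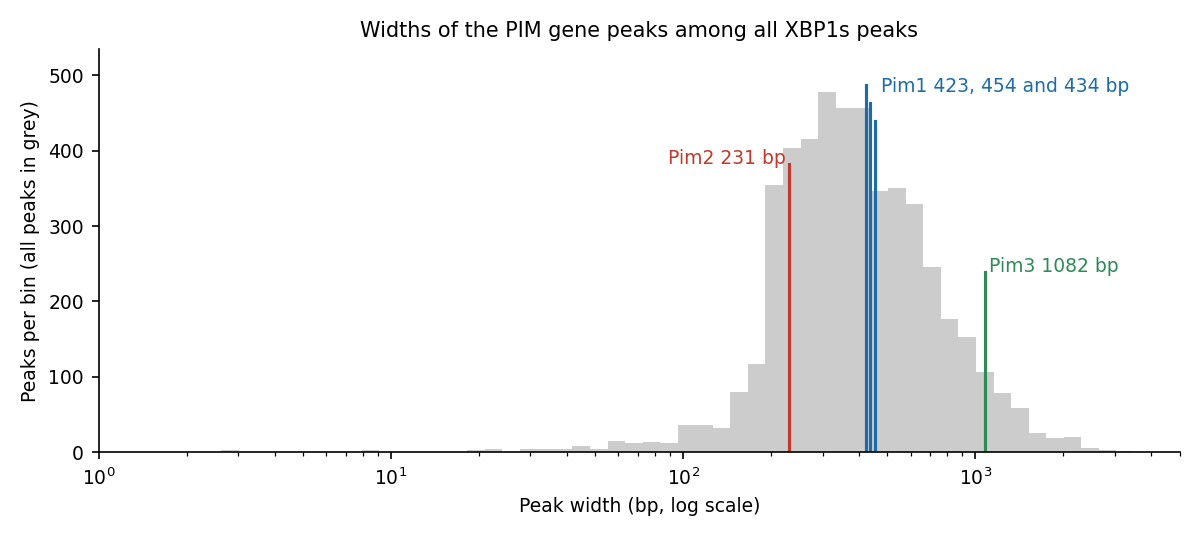
Widths of the 5 PIM gene peaks (coloured lines, whose heights carry no value) among all 4890 peaks (grey, counts per bin, log scale in bp). The Pim2 peak of 231 bp is left of most of the list, the Pim1 peaks of 423, 454 and 434 bp are near its middle, and the Pim3 peak of 1082 bp is in its upper tail.

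Each gene thus had a peak within 1000 bp of a start site, and the 3 peaks took different positions around it. The Pim3 peak covered the site, as did 68.5% of the 3639 peaks whose centres lay within 1000 bp of a TSS. The Pim2 peak lay wholly downstream, as did 18.7% of them, and the first Pim1 peak lay wholly upstream, as did 12.8%. Peaks over a start site had a median width of 480 bp, those wholly downstream 273 bp and those wholly upstream 296.5 bp. A wide peak is more likely to reach the site, so place and width are not separate measures here. Counting peaks centred within 5000 bp of the TSS, 3 of 3 PIM genes had one, compared with 15.9% of the 21900 protein-coding genes. The genes were chosen with this result known, and the count is a description.

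The surroundings of the members were searched for peaks of other genes. How often such peaks are absent around all genes was not computed, so an absence here is only a description. No peak of another gene lay within 10000 bp of any member. The nearest was 54953 bp from Pim1 (Tbc1d22b), 15573 bp from Pim2 (Pqbp1) and 42042 bp from Pim3 (Alg12, which encodes a mannosyltransferase of N-glycan assembly, with 1441 bp). The Alg12 peak (chr15:88818711-88820151) also covers an end of Creld2, an endoplasmic reticulum gene at 88819646, which is the protein-coding gene next to Pim3 on that side and had no peak of its own. On the other side is Ttll8, with none. The protein-coding genes next to Pim1 are Fgd2, with 2 peaks of at most 210 bp, and Tmem217, with none. Pim2 lies in a dense stretch of genes. Slc35a2, which encodes the Golgi transporter of UDP-galactose, begins 488 bp past the end of Pim2 in the RefSeq table and had no assigned peak. Otud5, a deubiquitinase gene, ends 1679 bp before it and had 1 peak of 302 bp.

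The composition of the promoter windows (300 bp each) also differed between the members. The window at the first Pim1 start site held 81.3% G and C bases and 42 CpG dinucleotides, and 99.2% of the 21263 windows of protein-coding genes had a lower G and C content. The Pim3 window held 69.0% and 40 CpG, and the Pim2 window 62.7% and 31 CpG. The window at the internal Pim1 start site held 49.0% and 5 CpG, and no peak overlapped it. The 3221 windows that a peak touched (15.1% of all) had medians of 62.3% and 24 CpG, against 55.0% and 9 CpG in the windows that none touched. The windows at the first start of each PIM gene thus held more CpG than the median window with a peak, and the internal Pim1 window held fewer than the median window without one.

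**Figure D3:**
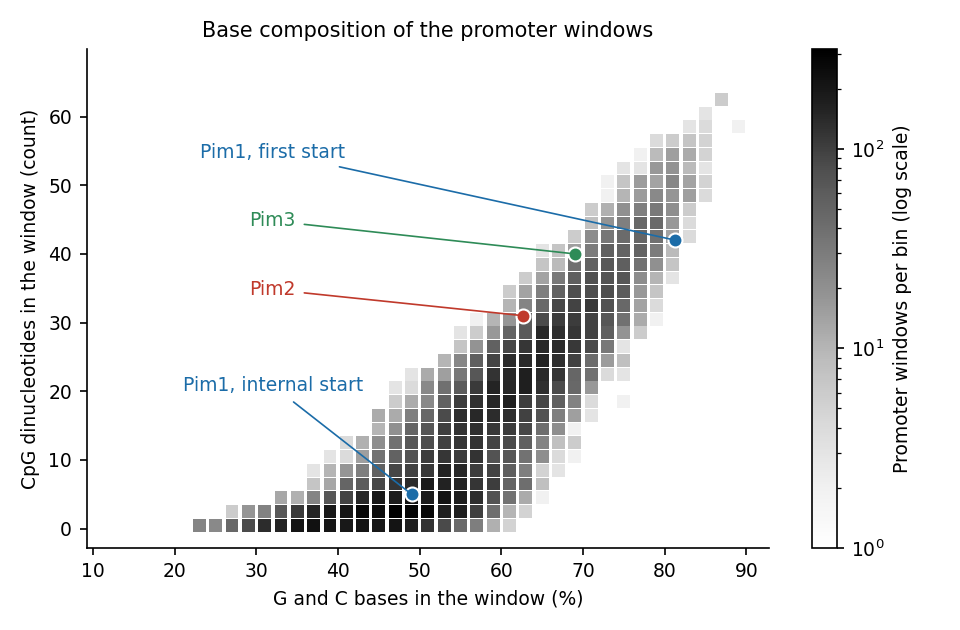
Share of G and C bases (per cent) and number of CpG dinucleotides in the promoter windows of all protein-coding genes, with windows per bin in grey on a log scale. The 4 PIM windows are marked in colour; the first Pim1 start, Pim3 and Pim2 hold 42, 40 and 31 CpG, and the internal Pim1 start holds 5.

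Short motifs were searched on both strands of these windows: ACGT, the core of XBP1 sites, the related CCACG, TGACGTGG, a longer unfolded protein response element, the endoplasmic reticulum stress element, which is a CCAAT box followed 9 bases later by CCACG, and TTCNNNGAA, the site of STAT factors. The E-box CACGTG and the CCAAT box alone were added after the sequences had been seen. An E-box of these letters contains ACGT and can overlap a match of CCACG, as can the longer elements. In the Pim3 window, 1 CCACG lay at positions -218 to -214 and 2 reverse CCAAT lay at -113 to -109 and -73 to -69, all inside the peak; positions count from +1 at the start site. The Pim2 window held 1 ACGT at -137 to -134 and 1 reverse CCAAT at -101 to -97, both outside the peak, which begins downstream. Only 34 bp of the 231 bp Pim2 peak are in the window, so most of that peak could not be searched. The Pim3 window likewise held only 300 bp of the 1082 bp Pim3 peak.

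The first Pim1 window held 1 reverse CCACG at 16 to 20, outside the peak. The internal Pim1 window held CACGTG at -58 to -53 with ACGT inside it, 1 reverse CCACG overlapping it and 1 further CCACG at -122 to -118. No peak covered that window, and the second Pim1 peak began beyond it. None of the 4 PIM windows held TGACGTGG, the spaced stress element or the STAT site. ACGT was in 55.2% of the windows that a peak touched, compared with 33.0% of all windows, and CCACG was in 58.2%, compared with 37.4%. The E-box was in 14.0% of touched windows, compared with 7.84% of all, and TGACGTGG in 1.96%, compared with 0.705%. The spaced element was in 0.404%, compared with 0.141%. The CCAAT box was in 40.6%, compared with 38.2%, and the STAT site TTCNNNGAA in 7.23%, compared with 7.69%. None of these differences was tested. ACGT, CCACG, the E-box, TGACGTGG and the spaced element all contain a CpG, while the CCAAT box and the fixed letters of the STAT site do not. The touched windows also held more CpG, with a median of 24 against 9 in the windows that none touched. Whether the motif shares follow from this composition was not tested. These matches are letters in a window and not measured sites.

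**Figure D4:**
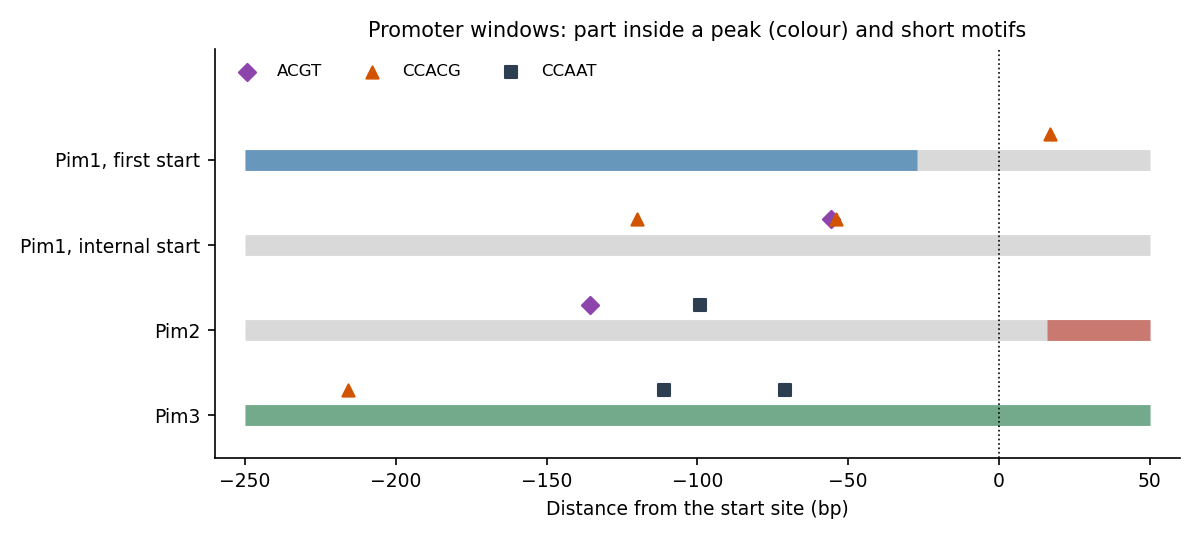
The 4 PIM promoter windows by distance from the start site in bp, with the part inside an XBP1s peak in colour and the rest in grey. Symbols above each bar mark the ACGT core (diamonds), the CCACG motif (triangles) and the CCAAT box (squares) on either strand; in the Pim3 window all 3 matches are inside the peak, and in the Pim1 and Pim2 windows none is.

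The genes around the PIM kinases were described with 8 lists written from general knowledge of the pathway. The lists were chosen with earlier results of these data known. Their genes are not random draws, so the shares and intervals are descriptions and not tests. Of 26 reported PIM substrates, 13 had a peak centred within 5000 bp of the TSS (50%, exact 95% interval 29.9 to 70.1). The share over all protein-coding genes was 15.9%. Their widest peaks per gene had a median of 763 bp, against 410 bp over the 3487 genes with such a peak. The widest were at Snd1, a transcriptional coactivator (2049 bp), Akt1s1, which encodes the mTORC1 inhibitor PRAS40 (1141 bp), the cell cycle inhibitor gene Cdkn1b (1030 bp), the cell cycle phosphatase gene Cdc25a (825 bp) and the NF-kappaB subunit gene Rela (773 bp). Bad, a pro-apoptotic gene whose protein PIM kinases inactivate, had a promoter peak of 313 bp. No peak was assigned to Myc, which encodes a factor that PIM kinases stabilise. The median of the widest peaks per gene differed between the lists, but each value below rests on few genes. It was 301 bp for other growth and survival kinases (2 genes). PIM protein stability had 399.5 bp (6 genes) and the IL-15 route 412 bp (3 genes). It was 503 bp for NK cell genes (5 genes) and 506.5 bp for cap-dependent translation (4 genes). For XBP1 and its mRNA splicing it was 1396.5 bp, from 2 genes with 2296 and 497 bp.

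Genes of PIM protein stability had a peak in 6 of 8 cases (75%, exact 95% interval 34.9 to 96.8), against 15.9% of all protein-coding genes. With only peaks at or above the median width, 4 of 8 did (50%, 15.7 to 84.3), against 9.03% of all genes. The 6 genes with a peak were Stub1, which encodes the ubiquitin ligase CHIP (742 bp), the HSP90 genes Hsp90aa1 (434 bp) and Hsp90ab1 (417 bp), the PP2A scaffold gene Ppp2r1a (382 bp) and the PP2A catalytic genes Ppp2ca (360 bp) and Ppp2cb (158 bp). Of 7 genes of cap-dependent translation, a process that PIM kinases promote, 4 had a peak (57.1%, 18.4 to 90.1, against the same 15.9%): Eif4g1 (737 bp), Rps6 (508 bp), Eif4a1 (505 bp) and Eif4e (482 bp). Of 13 other growth and survival kinases, 2 had a peak (15.4%, 1.92 to 45.4), against 15.9% of all genes. This count moved with the setting: it was 0 of 13 with peaks at or above the median width, against 9.03% of all genes, and 4 of 13 (30.8%) with a peak near either gene end, against 21.5%. The 2 genes were Pdpk1 (345 bp) and Akt2 (257 bp). Both were narrower than the median of the list.

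On the route from the IL-15 receptor to the Pim genes, 3 of 10 genes had a peak (30%, exact 95% interval 6.67 to 65.2). The share over all protein-coding genes was 15.9%, and the difference was not tested. The 3 genes were the receptor chain gene Il2rb (853 bp), Stat3 (412 bp) and Jak1 (214 bp). The list gave no peak to Stat5a or Stat5b, whose proteins are known to induce Pim1 and Pim2 after cytokine signals. Of 4 genes of XBP1 and its mRNA splicing, 2 had a peak (50%, 6.76 to 93.2), against the same 15.9% and also not tested. They were Xbp1, with a peak of 2296 bp over the start site, and Zbtb8os, which encodes archease, a cofactor of the RNA ligase (497 bp). The Xbp1 peak was wider than all but 11 of the list. No peak was assigned to Ern1, the gene of the splicing enzyme IRE1. The labelled cell type was checked only against peaks, since no expression was measured. Of 10 NK cell genes, 5 had one (50%, 18.7 to 81.3), against 15.9% of all protein-coding genes. Of 10 genes of other blood cells, 0 did (exact 95% interval up to 30.8%). Each count rests on 10 genes and was not tested against the 15.9%, so these counts do not settle the cell type.

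**Figure D5:**
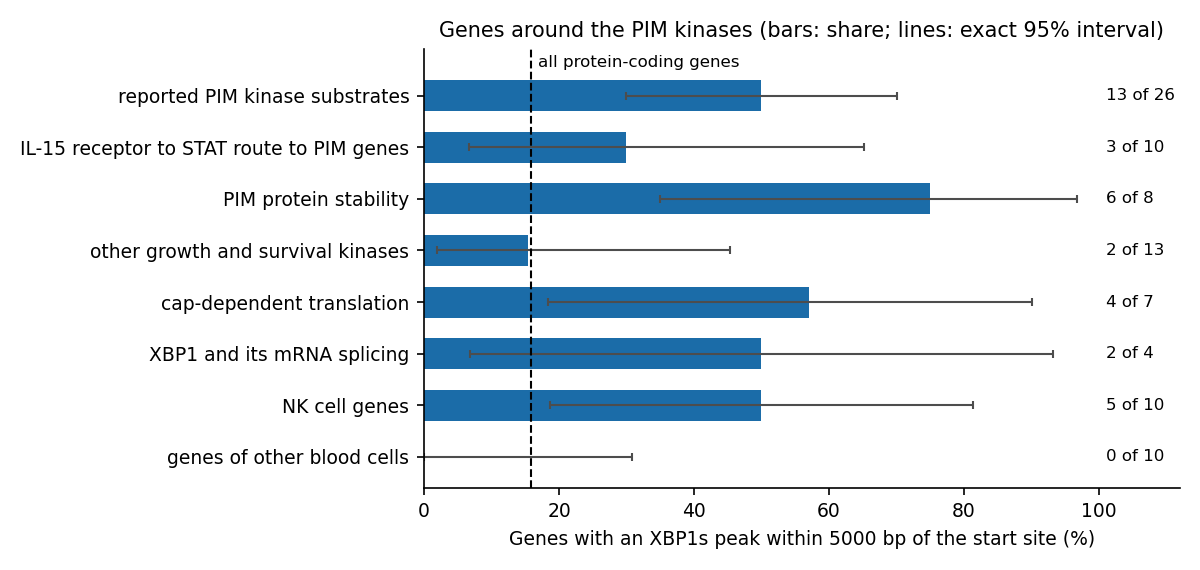
Share of genes (per cent) with an XBP1s peak within 5000 bp of the start site in 8 gene lists around the PIM kinases, with exact 95% intervals that cover counting error only. The dashed line is the 15.9% of all protein-coding genes; PIM stability genes are at 75% and other growth and survival kinases at 15.4%.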

How the data were processed

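Values come from 1 table for the series. Per the file header, it is HOMER's annotation of 1 file of common intervals on mm10, and the score that the authors deposited is 0 throughout. Bowtie2 2.4.5, MACS2 2.2.7.1 and HOMER 4.11 are named in the submitters' processing notes. The sources used here do not say how the common intervals were made. If they are overlaps of separate calls, each width measures an overlap and not a whole peak. Libraries carry no columns, so depth and replicate spread are unknown.

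Genes were matched by Entrez number to RefSeq GRCm38.p6 (99.9% of peaks found). A gene counted when the authors had assigned it a peak centred within 5000 bp of its TSS. Intervals are exact Clopper-Pearson and cover counting error only. No test was run, and the planned comparison of protein sequences was not made. The motif and overlap searches were tested on simulated data. The members and lists were chosen with earlier results of these data known. Named genes are the members, Xbp1, neighbours, up to 5 list members by peak width, and 3 genes most alike to each member (1 of these is not reported here); genes of the nearest other peaks, genes with 3 or more peaks, and Bad, Myc, Ppp2cb, Stat5a, Stat5b and Ern1 were named after their values were seen. Analyses used matplotlib 3.10.9, SciPy 1.17.1, NumPy 2.4.6 and pandas 2.3.3 in Python 3.11.15.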

Additional observations from a re-analysis of the deposited data

How the results depend on the processing

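No paired analysis was possible because the list holds no value of any library, so no replicate could be left out either. The 3 PIM genes kept a peak with a window of 1000 bp, at any distance, with segments of at least 200 bp and with either gene end, and 2 of them, Pim1 and Pim3, did when only peaks at or above the median width were used. The number of PIM peaks ranged from 3 to 5 around the 4 within 5000 bp. With peaks at or above the median width, the share of all protein-coding genes was 9.03%, other growth and survival kinases had 0 genes with a peak and NK cell genes 3. With either gene end, growth and survival kinases had 4 of 13 and genes of other blood cells 1 of 10. The share of all protein-coding genes at that setting was 21.5%. Of 55 recomputed counts and shares, 50 stayed within 1.5 times the value reported. The share of narrower peaks ran from 14.8% to 18.7% for Pim2 and from 93.5% to 94.7% for Pim3 across 4 comparison sets. It ran from 52.0% to 58.3% for the first Pim1 peak, from 56.4% to 66.7% for the second and from 53.8% to 72.7% for the third.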

Other observations

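By a rule that compares annotation class, distance to the TSS (within 50 bp) and then width, the peak most like that of Pim2 was at Srebf1, which encodes a sterol regulatory factor (232 bp, centred 118 bp downstream), followed by Mrps24 (233 bp) and Mybbp1a (233 bp), among 114 candidates. For Pim3, among 701 candidates, they were Chid1 (1081 bp), the histone demethylase gene Kdm5a (1087 bp) and Ptrhd1 (1075 bp). For the intron peak of Pim1 (454 bp) there were only 7 candidates. The nearest in width was Gnas, which encodes a stimulatory G protein subunit (487 bp). Fosb, which encodes a subunit of AP-1, was among the 3 nearest although its peak was 190 bp narrower (264 bp). Likeness here is over 1 combined list and says nothing of shared function.

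Several genes of the 8 lists, which include the NK cell list, also had 3 or more assigned peaks. Of 86 listed genes, 7 did: the cytokine signalling inhibitor gene Socs1, with 5, Runx3, with 5, and Runx1, with 3, the granzyme genes Gzmb, with 5, and Gzma, with 3, Il2rb, with 4, and Eif4a1, with 3. Over all protein-coding genes the share with 3 or more was 0.466%, and among genes with any assigned peak it was 2.62%. The Pim1 peaks spanned 10933 bp. Socs1, like Pim1, had a promoter peak and intergenic peaks downstream. Its intergenic peaks were centred 3467, 13279 and 16594 bp downstream of the TSS. Runx1 had a peak centred 76262 bp downstream of its TSS and Runx3 had one 53780 bp downstream. The Eif4a1 peaks were all centred within 1000 bp of the TSS.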
